A study of Homo sapiens with 16 samples.

Results

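The state of K562 cells at 3 h and 6 h of phorbol ester treatment was set against both ends of the time course, the untreated cells at 0 h and the cells at 72 h. The comparison used 8 of the 16 libraries of the series, 4 from the mid-course (3 h and 6 h) and 4 from the ends (0 h and 72 h), with 2 libraries at each time. The fit held all 16 libraries with a term for each of the 8 time points. A gene was called a peak gene if its mid-course level was higher than the mean of both ends, than 0 h and than 72 h, each with an adjusted p under 0.05. A trough gene was lower in all 3 tests. K562 is an established human leukaemia line, labelled wild type, so every library comes from 1 cell line in culture. Phorbol 12-myristate 13-acetate (PMA) was given at 25 nM, and the 0 h libraries had no time in PMA. The medium of the longer courses was changed after 24 h and 48 h, so changes of medium and time in PMA cannot be told apart at 72 h. RNA was total RNA from which ribosomal RNA had been removed, with 27285773 to 54056289 estimated reads per library. The labels do not say whether the 2 libraries of a time point came from separate cultures, so the p-values measure the spread between these libraries, which may be technical. In such bulk samples fewer cells of a kind and less RNA per cell cannot be told apart.

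PMA stands in for diacylglycerol and activates protein kinase C, which in turn drives the RAF, MEK and ERK kinases and the transcription factor NF-kB. The first genes to respond are the immediate-early genes, among them the FOS, JUN and EGR transcription factors, whose transcripts are short-lived and whose products include their own inhibitors, so the classical response to such a stimulus rises and falls. K562 cells carry an erythroid programme built on GATA1, TAL1, LMO2 and NFE2, and under PMA they turn towards megakaryocyte-like cells, a lineage that uses several of the same factors.

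The libraries carried the erythroid genes that mark this line. The fetal globin genes HBG1 and HBG2, which share nearly identical sequence, and TFRC, GATA1 and TAL1 had reads in all 16 libraries. GATA1 ranged from 9.30 to 155 CPM (reads scaled to a common library size with TMM factors). Of 6 marker lists for other cell types, the summed level at mid-course did not exceed that of the highest end library for the T cell, B cell, monocyte, fibroblast and epithelial lists. For the 4 tested genes of the granulocyte list it was 30.5 to 32.3 CPM at 6 h and 10.8 to 12.6 CPM at 3 h, against 7.70 to 9.82 CPM at 0 h and 26.0 to 27.2 CPM at 72 h. The fibroblast marker LUM had no read. TRAC, CD14, EPCAM and KRT19 from these lists were peak genes, and their part in the other results was not tested. Differences between the replicates of a time point could follow the GC content of genes. Across genes r was -0.57 at 72 h, 0.38 at 3 h and -0.07 at 6 h. One library stood apart. It was 0 h replicate 2, with the shortest gap between full and effective transcript length (199 nt, against 210 to 248 nt in the others) and 3.20% of its reads on PLCG2 against 1.30 to 1.74% elsewhere. The difference between the 0 h replicates followed the GC content of genes (r = -0.73 across genes). Without it, 1928 genes were peak genes and 2260 were trough genes.

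At mid-course 4533 genes lay beyond both ends, slightly more of them below than above. Of 17559 genes tested, 2086 (11.9%) were peak genes and 2447 (13.9%) were trough genes. Against the mean of both ends 4739 genes (27.0%) were higher and 5267 (30.0%) lower at mid-course. Against 0 h, 26.5% were higher and 28.7% lower, and against 72 h, 27.8% were higher and 32.6% lower (edgeR's quasi-likelihood test, Benjamini-Hochberg adjusted). The 3 comparisons share the 4 mid-course libraries, and a gene that moved steadily from 0 h to 72 h could pass the first test without lying beyond both ends. This was so for 2653 genes higher and 2820 genes lower than the mean of both ends, counting every gene that missed one of the other 2 tests. THBS1, a matricellular protein gene, was higher at 72 h than at mid-course, with 3.53 and 3.54 CPM at 0 h, 8.28 and 5.45 CPM at 3 h, 146 and 152 CPM at 6 h, and 4916 and 4271 CPM at 72 h. TMM scaling sets the typical gene to no change. With libraries scaled to total counts alone, the median of all genes moved by -0.25 on the log2 scale against both ends. Then 1192 genes were peak genes and 3895 trough genes, so that peaks made up 23.4% in place of 46.0% of the genes beyond both ends. None of the 2086 and 2447 genes changed to the opposite class under that scaling, and all values below are relative to the TMM-scaled typical gene. Where counts with scaling to total counts are given for a list, they are to be set against these 1192 and 3895 of 17559 genes. The shares of 11.9% and 13.9% hold for the main fit.

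The distances were mostly moderate. The smaller of the 2 differences from the ends had a median size of 0.62 on the log2 scale in peak genes and 0.68 in trough genes. In all, 618 peak and 679 trough genes were at least 2-fold away from each end. All 4 mid-course libraries lay above all 4 end libraries for 1593 peak genes (76.4%) and below them for 1610 trough genes (65.8%), where 10.4% of all tested genes lay above and 10.1% below in this way. These shares follow from the choice of the genes and are given as a description. The members nearest to the threshold had adjusted p-values of up to 0.0499 by edgeR's test with Benjamini-Hochberg adjustment. In the plot of both differences the peak genes fill the upper right corner and the trough genes the lower left.

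**Figure D1:**
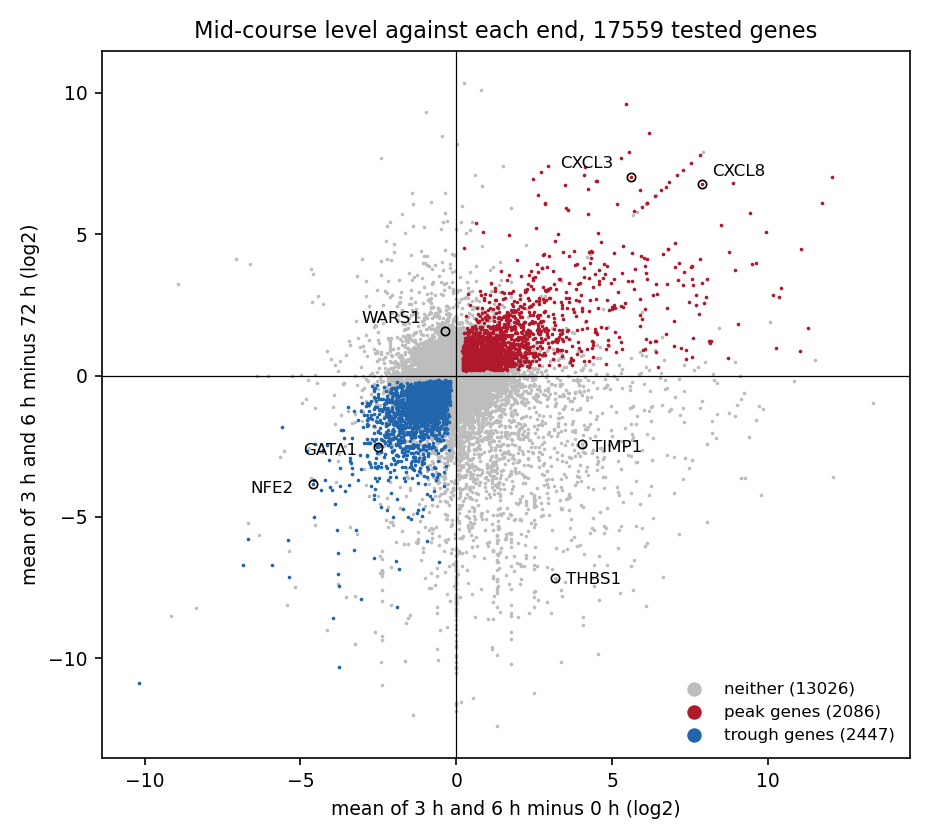
Each point is 1 of 17559 tested genes, placed by its fitted log2 difference of the mean of 3 h and 6 h from 0 h (horizontal axis) and from 72 h (vertical axis), with 2086 peak genes in red and 2447 trough genes in blue. CXCL3 and CXCL8 sit far above both ends, NFE2 and GATA1 below both, and THBS1 and TIMP1 between the ends, higher than 0 h and lower than 72 h.

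Promoter sequences are shown for the chemokine genes CXCL8, CXCL1, CXCL3 and CXCL2, whose products attract neutrophils, since CXCL8 and CXCL3 were among the 10 peak genes farthest from both ends. That of CISH, a cytokine-induced inhibitor of STAT5 signalling, is shown as CISH was among the 10 such trough genes. Each is the promoter window of the gene from RefSeq on GRCh38.p14, from 250 bases before to 50 bases after the annotated start, written 5′ to 3′ along the gene's strand. Capitals mark a match to the AP-1 motif TGANTCA in CXCL8 (chr4:73740319-73740618, plus strand). They mark a stretch of 11 letters that holds a pair of overlapping matches to the NF-kB motif in CXCL1 (chr4:73869143-73869442, plus strand), CXCL3 (chr4:74038640-74038939, minus strand) and CXCL2 (chr4:74099146-74099445, minus strand), and matches to the STAT motif TTCNNNGAA in CISH (chr3:50611725-50612024, minus strand).
CXCL8: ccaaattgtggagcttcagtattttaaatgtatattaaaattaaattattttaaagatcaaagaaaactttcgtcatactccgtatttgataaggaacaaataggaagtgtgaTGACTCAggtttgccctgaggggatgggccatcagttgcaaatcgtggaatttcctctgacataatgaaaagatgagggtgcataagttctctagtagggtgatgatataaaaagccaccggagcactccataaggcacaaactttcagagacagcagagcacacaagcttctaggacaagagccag
CXCL1: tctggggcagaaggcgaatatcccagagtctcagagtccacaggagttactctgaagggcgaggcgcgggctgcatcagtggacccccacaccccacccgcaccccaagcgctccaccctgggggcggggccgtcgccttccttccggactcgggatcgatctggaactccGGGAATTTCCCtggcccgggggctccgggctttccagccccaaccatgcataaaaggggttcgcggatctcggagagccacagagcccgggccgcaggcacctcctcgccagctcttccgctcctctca
CXCL3: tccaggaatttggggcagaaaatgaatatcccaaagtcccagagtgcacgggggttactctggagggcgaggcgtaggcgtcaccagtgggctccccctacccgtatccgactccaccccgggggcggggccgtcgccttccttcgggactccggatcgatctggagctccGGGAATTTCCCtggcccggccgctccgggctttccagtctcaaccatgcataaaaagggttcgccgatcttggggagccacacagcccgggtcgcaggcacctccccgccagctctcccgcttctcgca
CXCL2: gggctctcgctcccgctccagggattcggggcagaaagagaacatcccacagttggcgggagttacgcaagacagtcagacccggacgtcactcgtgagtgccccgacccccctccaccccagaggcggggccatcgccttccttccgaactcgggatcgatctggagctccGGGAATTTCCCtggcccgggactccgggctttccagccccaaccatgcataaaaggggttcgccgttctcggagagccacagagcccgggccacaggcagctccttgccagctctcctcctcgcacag
CISH: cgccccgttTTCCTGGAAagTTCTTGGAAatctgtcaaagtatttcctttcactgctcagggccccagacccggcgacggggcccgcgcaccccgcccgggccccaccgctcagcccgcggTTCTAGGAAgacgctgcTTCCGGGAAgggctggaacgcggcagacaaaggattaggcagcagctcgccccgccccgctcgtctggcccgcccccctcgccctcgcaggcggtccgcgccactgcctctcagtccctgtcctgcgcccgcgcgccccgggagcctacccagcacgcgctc

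The AP-1 letters in CXCL8 begin 137 bases before the start. The stretch GGGAATTTCCC begins 79 bases before the start in CXCL1 and CXCL3 and 78 bases before it in CXCL2. This stretch, searched for after the 3 windows were seen, occurs in 7 of the 12135 windows of tested protein-coding genes (0.0577%). CXCL1, CXCL2, CXCL3, TNFRSF9 and RC3H2 were peak genes, OAS3 a trough gene and CACHD1 neither. The stretch was taken from the windows of CXCL1, CXCL2 and CXCL3, so these 3 matches were fixed in advance. Of all tested genes 11.9% were peak genes and 13.9% trough genes. CISH holds 4 matches to the STAT motif, from 241 to 112 bases before the start; 4 of the 12135 windows (0.033%) hold as many, those of CISH, BCL6, ZNF112 and ZNF225. Across the peak genes at least 2-fold from each end, 333 of 463 protein-coding genes had a window in the table. Of these 8.41% held the AP-1 letters, against 3.43% of the windows of 467 such trough genes, 5.04% of all tested protein-coding genes and 7.76% of all 27305 windows. The CRE letters TGACGTCA were in 3.90% and 1.71% of the same peak and trough windows and in 3.03% of those of all tested protein-coding genes. The CArG box of serum response factor was in 2.40% and 0.43%, against 1.15%. The GATA letters GATAAG were in 4.80% and 5.78%, against 4.32%, and the STAT letters in 5.11% and 4.93%, against 6.25%. The EGR letters GCGNGGGCG were in 17.7% and 13.1%, against 14.5%, and the NF-kB motif in 13.5% and 16.5%, against 12.7%. Both strands were searched for each of the 7 motifs, and a window could count for several. In the printed windows 1 match to the GATA letters in CXCL8 and 2 to the EGR letters in CISH were left unmarked. A match is a run of letters and not a measured binding site.

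Chemokine genes were among the peak genes farthest from both ends. CXCL8, the gene of interleukin 8, stood at 6.08 and 4.73 CPM at 0 h, 1137 and 1075 CPM at 3 h, 1465 and 1459 CPM at 6 h, and 13.3 and 10.1 CPM at 72 h. All 4 mid-course libraries were above all 4 end libraries, which the choice of the farthest genes required. Their mean was 238-fold above 0 h and 110.0-fold above 72 h. The fitted log2 differences were 7.88 (SE 0.18, adjusted p = 1.02e-12) from 0 h and 6.76 (SE 0.16, adjusted p = 6.19e-13) from 72 h by edgeR's quasi-likelihood test with Benjamini-Hochberg adjustment. CXCL3 had 11.9 and 10.5 CPM at 0 h, 485 and 440.2 CPM at 3 h, 615 and 649 CPM at 6 h, and 4.10 and 4.09 CPM at 72 h. It ended below its starting level, and its mid-course mean was 49.0-fold above 0 h and 134-fold above 72 h. CXCL2 had 12.1 ± 1.16 CPM (SD, n = 2) at 0 h, 151 ± 1.17 CPM at 3 h, 139 ± 10.8 CPM at 6 h and 2.46 ± 0.385 CPM at 72 h. Its difference between 6 h and 3 h did not pass the test (log2 -0.12, SE 0.10, adjusted p = 0.396, edgeR). CXCL1 stayed low, with 7.29 CPM at 6 h as the highest mean of the course. These chemokine transcripts resemble each other, so their estimated counts can share reads.

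Growth-factor genes of the same stretch of chromosome 4 also peaked. Between CXCL8 and AREG (GRCh38 chromosome 4, 73740506 to 74455009, 715 kb) 9 genes were tested, of which 6 were peak genes (CXCL8, CXCL1, CXCL3, CXCL2, EREG and AREG) and 0 trough genes; the remaining 3 were PPBP, MTHFD2L and the pseudogene HNRNPA1P55. The stretch was singled out after the values were seen, and its borders CXCL8 and AREG, both peak genes, were counted by choice. Of all tested genes 11.9% were peak genes and 13.9% trough genes. AREG, an EGF receptor ligand, had 4.76 and 4.18 CPM at 0 h, 130.1 and 122 CPM at 3 h, 445 and 464 CPM at 6 h, and 18.4 and 16.3 CPM at 72 h. EREG, another ligand of that receptor, had 12.2 and 11.4 CPM at 0 h, 12.3 and 13.1 CPM at 3 h, 31.5 and 28.0 CPM at 6 h and 7.75 and 7.62 CPM at 72 h. Its rise thus lay at 6 h. Of 12 tested growth-ligand genes, 4 were peak genes (33.3%, against 11.9% of all genes), the other two being HBEGF and the cytokine gene IL11. IL11 had 3.04 and 4.34 CPM at 0 h, 221 and 232 CPM at 6 h and 14.5 and 20.6 CPM at 72 h. VEGFA and FGF2, which promote vessel growth, were trough genes (16.7% of the list, against 13.9% of all genes). VEGFA had 372 and 465 CPM at 0 h, 138 and 144 CPM at 6 h and 608 and 609 CPM at 72 h.

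**Figure D2:**
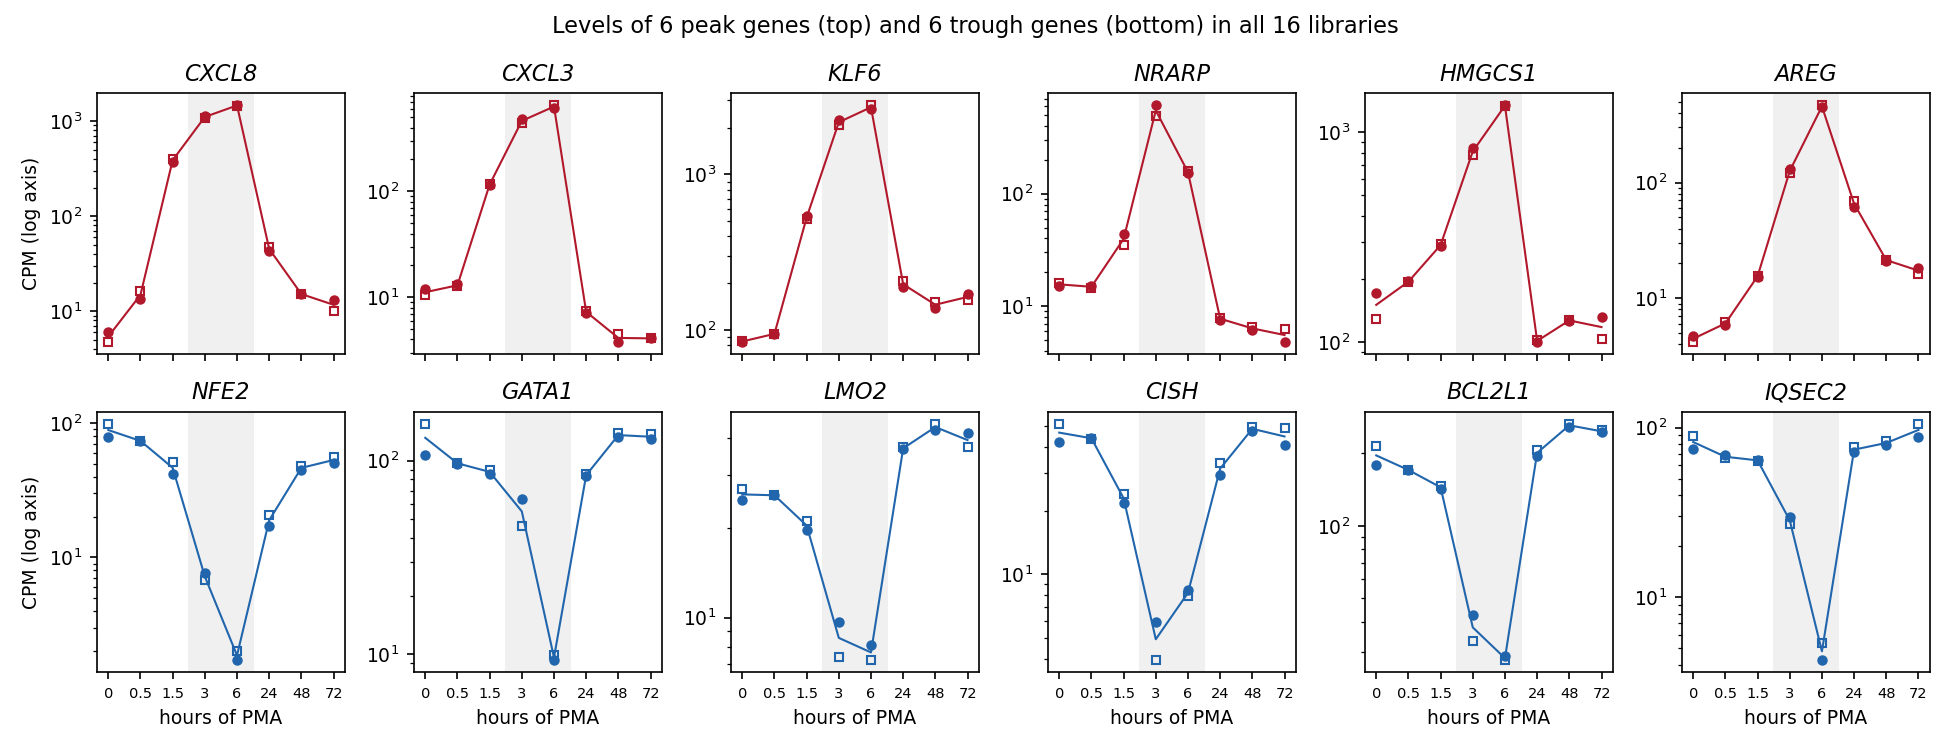
Levels of 6 peak genes (red, top) and 6 trough genes (blue, bottom) in CPM on a log axis over 8 time points in hours of PMA, which are evenly spaced and not to scale; filled circles are replicate 1, open squares replicate 2, lines join the means, and the grey band marks 3 h and 6 h. CXCL8 rises from 5.40 CPM at 0 h to 1462 CPM at 6 h and is at 11.7 CPM at 72 h, while GATA1 falls from 131 CPM to 9.64 CPM and is at 133 CPM at 72 h.

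Genes with few or no reads at 0 h were among the peak genes farthest from both ends, and for these a fold against 0 h rests on few reads. CXCR3, a chemokine receptor gene usually linked to activated T cells, had no read in the 0 h and 0.5 h libraries, 6.39 and 4.27 CPM at 3 h, 27.7 and 31.3 CPM at 6 h, and 0.111 and 0.250 CPM at 72 h. Its mid-course mean was at least 185-fold higher than 0 h when 0 h was set to 3 reads per library, and 96.4-fold above 72 h. The gel-forming mucin gene MUC5AC had 1 read in both 0 h libraries together, 58.3 and 69.6 CPM at 3 h, 92.6 and 119 CPM at 6 h, and 0.446 and 0.812 CPM at 72 h. Against that single read the ratio was 5248 with an exact 95% interval from 942 to 207297, which covers counting error only. The leukocyte metalloproteinase gene MMP25 and the transcription factor gene SOX8 were higher at 3 h, at 47.1 ± 2.82 and 54.7 ± 8.68 CPM (SD, n = 2), than at 6 h, at 12.0 ± 0.963 and 14.1 ± 0.649 CPM. NRARP, a feedback inhibitor of Notch signalling, had 15.0 and 16.2 CPM at 0 h, 609 and 488 CPM at 3 h, 152 and 158 CPM at 6 h and 4.79 and 6.28 CPM at 72 h. ARC, an activity-regulated gene of neurons, had 0.307 and 0.676 CPM at 0 h, 899 and 616 CPM at 3 h, 166 and 158 CPM at 6 h and 20.5 and 25.3 CPM at 72 h. In NRARP and ARC both 3 h libraries lay above both 6 h libraries. All 4 lay above the ends, which the choice of the farthest genes required. CPLX1 and ZDHHC11 completed the 10 peak genes farthest from both ends, at 14.6 and 28.8 CPM on average at mid-course. ZDHHC11 overlaps BRD9 and has a near-identical neighbour copy, so its level is uncertain.

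Immediate-early transcription factors were the list with the highest share of peak genes. Of 24 tested members 18 (75.0%) were peak genes and 0 trough genes, against 11.9% of all genes. The list's median lay 3.41 above 0 h and 0.76 above 72 h on the log2 scale, where the median over all tested genes was about 0. These peak genes were EGR1 to EGR4, FOS, FOSB, FOSL1, FOSL2, JUN, JUND, NR4A1, KLF2, KLF6, KLF10, IER2, IER5, MAFF and BHLHE40. KLF6, a zinc finger activator, had 84.1 and 85.6 CPM at 0 h, 2249.6 and 2080.3 CPM at 3 h, 2625 and 2778 CPM at 6 h and 172 and 156 CPM at 72 h. Its mid-course mean was 28.7-fold above 0 h and 14.9-fold above 72 h. EGR1, a growth-response zinc finger factor, had 118 and 175 CPM at 0 h and already 1278 and 1422 CPM at 0.5 h. It stood at 3011 and 2746 CPM at 3 h, 3266 and 3766 CPM at 6 h and 875 and 1148 CPM at 72 h. The decline was thus partial for EGR1, with a log2 difference of 1.65 (SE 0.17, adjusted p = 1.98e-06, edgeR) between mid-course and 72 h. FOSL1, a partner in AP-1, was nearer to a full return, with 22.1 and 34.2 CPM at 0 h, 302 and 297 CPM at 3 h and 33.9 and 47.6 CPM at 72 h. The count of peak genes in the list was 15 to 19 when 1 library was left out and 16 with scaling to total counts.

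Inhibitors that such signalling induces were peak genes in part. Of 24 regulators that feed back on ERK and AP-1, 9 (37.5%, against 11.9% of all genes) were peak genes and 0 trough genes. In the same list 11 were lower at mid-course than at 72 h and 9 higher, against 32.6% and 27.8% of all genes. The list's median lay 2.68 above 0 h (2.32 with genes at the floor of 3 reads set to their bound) and at -0.32 against 72 h. DUSP1, a phosphatase of MAP kinases, had 14.8 and 20.0 CPM at 0 h, 354 and 257 CPM at 3 h, 169.9 and 163 CPM at 6 h and 114 and 105 CPM at 72 h. ZFP36, which binds AU-rich elements and speeds the decay of cytokine transcripts, was highest at 1.5 h (112 and 122 CPM), stayed at 80.3 to 98.9 CPM in the 4 mid-course libraries, and had 21.9 and 31.6 CPM at 72 h. PHLDA1 had 8.47 and 7.89 CPM at 0 h, 1550.2 and 1515 CPM at 6 h and, on average, 604 ± 60.4 CPM (SD, n = 2) at 72 h. Of 26 tested NF-kB targets and cytokines, 11 (42.3%) were peak genes, with TNIP1 as the only trough gene, and the list's median lay 1.05 above both ends (0.91 with genes at the floor set to their bound). Among them was NFKBIA, the inhibitor of NF-kB, with 12.8 and 14.3 CPM at 0 h, 31.6 and 27.3 CPM at 3 h, 76.5 and 82.4 CPM at 6 h and 18.8 and 22.0 CPM at 72 h. The colony-stimulating factor genes CSF1 and CSF2 peaked at 6 h, at 203 ± 2.98 and 54.1 ± 1.72 CPM (SD, n = 2), against 90.1 ± 6.91 and 12.0 ± 2.07 CPM at 72 h. TNIP1 kept its call in 7 of 17 alternatives.

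The erythroid list had the highest share of trough genes among the 20 lists. Of 26 erythroid genes, 8 (30.8%) were trough genes, against 13.9% of all genes, and 1 was a peak gene. The 8 were the transcription regulators GATA1, NFE2, LMO2, TAL1, GFI1B and ZFPM1, the erythropoietin receptor gene EPOR and the mitochondrial iron importer gene SLC25A37. The count of troughs was 7 to 8 when 1 library was left out and 10 with scaling to total counts, and the list's median was 0.02 against both ends, or -0.23 with that scaling. With that scaling 3895 of all 17559 genes were trough genes, and the median of all genes was -0.25. NFE2, a factor of globin and platelet genes, headed the trough genes named by distance. It had 78.9 and 99.1 CPM at 0 h, 7.62 and 6.82 CPM at 3 h, 1.71 and 2.02 CPM at 6 h, and 50.5 and 56.0 CPM at 72 h. Its 4 mid-course libraries were all below its 4 end libraries, which the choice of the farthest genes required. Its mid-course mean was 19.6-fold below 0 h and 11.7-fold below 72 h. GATA1, the master regulator of the lineage, had 107 and 155 CPM at 0 h, 63.3 and 46.2 CPM at 3 h, 9.30 and 9.98 CPM at 6 h, and 129 and 137 CPM at 72 h. The difference of 72 h from 0 h was 0.02 on the log2 scale (adjusted p = 0.923, edgeR). Mid-course lay at -2.51 (SE 0.13, adjusted p = 2.66e-09) from 0 h and at -2.53 (SE 0.13, adjusted p = 1.72e-09) from 72 h by edgeR's test. LMO2, which bridges TAL1 and GATA1 on DNA, had 24.8 and 26.9 CPM at 0 h, 9.71 and 7.40 CPM at 3 h, 8.11 and 7.19 CPM at 6 h and 41.4 and 37.3 CPM at 72 h. TAL1 moved less, from 175 and 192 CPM at 0 h to 122 and 110.3 CPM at 3 h and 142 and 136 CPM at 6 h, with 249 and 218 CPM at 72 h. GFI1B, a repressor needed by both erythroid and megakaryocytic cells, had 20.4 and 26.3 CPM at 0 h, 4.48 and 6.66 CPM at 6 h and 37.8 and 43.4 CPM at 72 h. EPOR had 6.87 and 7.79 CPM at 0 h, 1.49 and 2.30 CPM at 6 h and 7.41 and 8.50 CPM at 72 h. In LMO2, TAL1, GFI1B and EPOR alike, both 6 h libraries lay below all 4 end libraries.

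The return was not shared by all erythroid genes. KLF1, an activator of adult globin genes, had 43.8 and 61.4 CPM at 0 h, 4.17 and 4.11 CPM at 3 h, 1.37 and 1.38 CPM at 6 h and 2.90 and 2.84 CPM at 72 h. Its mid-course level was below 0 h, and its difference from 72 h did not pass the test (log2 -0.27, SE 0.17, adjusted p = 0.189, edgeR). The fetal globin gene HBG2 had 820.3 ± 119.7 CPM (SD, n = 2) at 0 h, 849 ± 119.6 CPM at 6 h and 632 ± 178 CPM at 72 h and was neither a peak nor a trough gene. TFRC, the transferrin receptor gene, was the single peak gene, with 506 and 421 CPM at 3 h and 364 and 266 CPM at 72 h. It lost that call in 8 of 17 alternatives, and its distance turned to -0.30 with counts derived from TPM. ZFPM1, the GATA1 cofactor, kept its call in 9 of 17 alternatives and turned to 0.06 with the GC trend of each library removed. It had 28.0 and 41.3 CPM at 0 h and 20.7 and 22.4 CPM at 6 h.

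Among 18 tested megakaryocyte and platelet genes, 3 were trough genes and 1 was a peak gene. The share of troughs, 16.7%, was near the 13.9% of all genes, and the count was 2 without 0 h replicate 2 or with each library's GC trend removed and 5 with scaling to total counts. MEIS1, a homeobox gene of stem cells and megakaryocytes, had 10.0 and 10.4 CPM at 0 h, 4.77 and 4.66 CPM at 3 h, 3.80 and 4.04 CPM at 6 h and 23.3 and 24.0 CPM at 72 h. TUBB1, the platelet tubulin gene, had 2.46 and 2.41 CPM at 0 h, 1.20 and 1.31 CPM at 6 h and 16.1 and 14.7 CPM at 72 h, so both genes lay below 0 h at mid-course and above it at 72 h. ITGA2B, the platelet integrin gene, was at 41.7 and 40.3 CPM at 6 h against 52.6 and 62.9 CPM at 0 h, and lay lower still at 24 h (13.2 and 12.9 CPM). Its trough call, at a log2 distance of -0.31, was lost without 0 h replicate 2 (-0.18, adjusted p = 0.167, edgeR) and with the GC trend removed (-0.016, adjusted p = 0.813, edgeR). GP1BA, GP9, PF4, SELP and CLEC1B were among the genes too low to be tested.

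The troughs farthest from both ends also held genes outside the lists. ZNF792, a zinc finger gene, had 31.1 and 33.4 CPM at 0 h, 3.98 and 3.72 CPM at 3 h, 1.88 and 1.98 CPM at 6 h and 48.2 and 44.2 CPM at 72 h. CISH, whose promoter window is printed above, had 42.0 and 51.4 CPM at 0 h, 5.95 and 3.91 CPM at 3 h, 8.41 and 7.93 CPM at 6 h and 40.6 and 49.0 CPM at 72 h. Its lowest point thus came at 3 h, and 6 h was higher by 0.72 on the log2 scale (SE 0.18, adjusted p = 0.00542, edgeR). BCL2L1, the gene of the survival protein BCL-xL, had 178 and 214 CPM at 0 h, 42.5 and 33.2 CPM at 3 h, 28.8 and 27.6 CPM at 6 h and 245 and 249 CPM at 72 h. IQSEC2, which encodes an exchange factor of ARF GTPases, had 75.3 and 89.2 CPM at 0 h, 29.9 and 26.9 CPM at 3 h, 4.23 and 5.35 CPM at 6 h and 88.6 and 105 CPM at 72 h. In ZNF792, CISH, BCL2L1 and IQSEC2 all 4 mid-course libraries lay below all 4 end libraries, which the choice of the farthest genes required. HOXB6, C11orf21, LRRC61 and ZBED10P completed the 10 trough genes farthest from both ends. Of these LRRC61 and ZBED10P overlap each other on chromosome 7, C11orf21 overlaps TSPAN32, HOXB6 overlaps HOXB3 and CISH overlaps MAPKAPK3. Outside this group GFI1B, EPOR, TUBB1, FGF2 and THBS1 overlap other genes too. Whether strand was used in counting is not given in the sources used here, so the levels of overlapping genes are uncertain. Of 490 tested zinc finger genes named ZNF, 110 (22.4%) were trough genes and 36 (7.35%) peak genes, against 13.9% and 11.9% of all genes. With scaling to total counts 152 were troughs and 20 peaks. With that scaling troughs outnumbered peaks among all 17559 tested genes too (3895 against 1192).

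**Figure D3:**
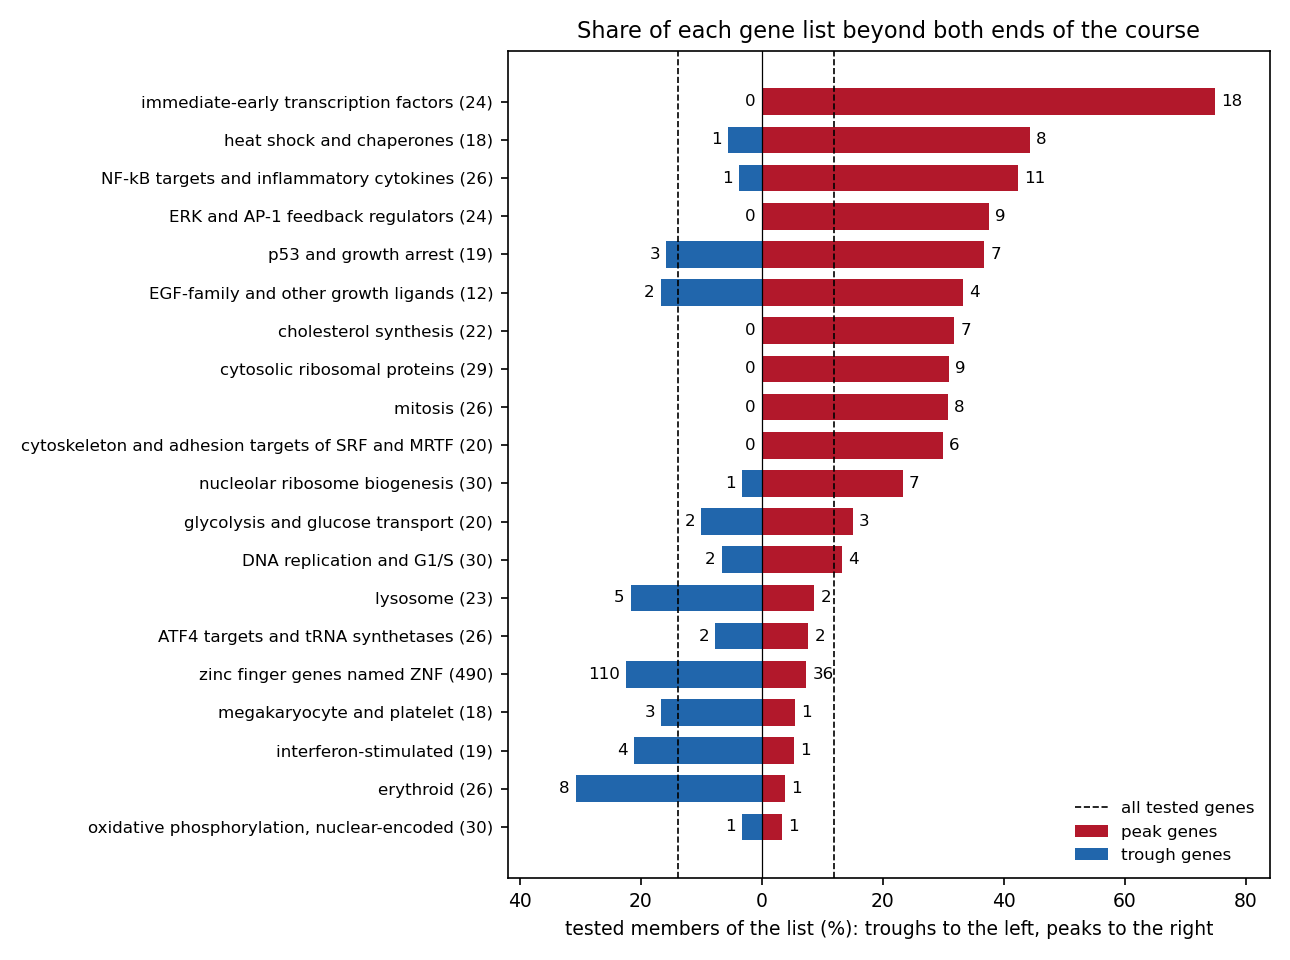
Share of tested members (%) that were peak genes (red, to the right) and trough genes (blue, to the left) in 20 gene lists, with the number of genes at the end of each bar and the number tested in brackets; dashed lines mark the shares over all tested genes, 11.9% and 13.9%. Immediate-early transcription factors reach 75.0% peaks and erythroid genes 30.8% troughs.

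Part of the sterol genes peaked at mid-course. Of 22 genes of cholesterol synthesis and its control, 7 (31.8%, against 11.9% of all genes) were peak genes and 0 were trough genes. Among the peak genes were HMGCS1, IDI1, CYP51A1, MSMO1 and INSIG1. With scaling to total counts 6 were peaks and 1 a trough. HMGCS1, an early enzyme of the pathway, had 172 and 129 CPM at 0 h, 839 and 782 CPM at 3 h, 1343 and 1332 CPM at 6 h and 133 and 104 CPM at 72 h. INSIG1, which holds the sterol-sensing machinery in the endoplasmic reticulum, had 239 and 213 CPM at 0 h, 2219.8 and 1843 CPM at 3 h, 391 and 355 CPM at 6 h and 238 and 209 CPM at 72 h. HMGCS1 was higher at 6 h than at 3 h by 0.72 on the log2 scale (SE 0.13, adjusted p = 0.000487, edgeR). INSIG1 was lower at 6 h, at -2.45 (SE 0.12, adjusted p = 4.17e-09, edgeR).

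Growth-arrest genes held both directions. Of 19 tested p53 and growth-arrest genes, 7 (36.8%) were peak genes and 3 (15.8%) trough genes, against 11.9% and 13.9% of all genes. The share of troughs was thus near that of all genes. With scaling to total counts 6 were peaks and 5 troughs. CDKN1A, the gene of the cell-cycle inhibitor p21, had 12.5 and 14.8 CPM at 0 h, 579 and 424 CPM at 3 h, 444 and 426 CPM at 6 h and 82.9 and 92.9 CPM at 72 h. BTG2, an antiproliferative gene, had 10.2 and 11.9 CPM at 0 h, 953 and 899 CPM at 3 h and 362 and 361 CPM at 72 h. CDKN2C, the gene of another inhibitor of cyclin-dependent kinases, went the opposite way, with 49.7 and 57.4 CPM at 0 h, 8.96 and 10.1 CPM at 6 h and 22.7 and 21.9 CPM at 72 h. CCND3 and TP53INP1 were the other trough genes. Of 26 mitosis genes 8 were peak genes and 0 trough genes, but the count of peaks dropped to 3 when 3 h replicate 1 was left out and to 4 when 0 h replicate 2 was. With scaling to total counts it was 2, with 3 troughs, so no direction is given for the list. In the main fit peaks were 30.8% of the mitosis list, against 11.9% of all genes. In DNA replication 4 of 30 genes (13.3%) were peaks and 2 (6.67%) troughs, against 11.9% and 13.9% of all genes. With scaling to total counts 2 were peaks and 4 troughs. RRM2, a subunit of ribonucleotide reductase, had 557 and 559 CPM at 3 h and 541 and 595 CPM at 6 h against 96.1 and 99.8 CPM at 0 h and 337 and 305 CPM at 72 h. E2F2, a transcription factor of the cell cycle, was a trough gene and had 9.39 and 10.3 CPM at 6 h against 68.9 and 80.8 CPM at 0 h and 19.5 and 21.2 CPM at 72 h.

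Of 18 tested chaperone genes 8 (44.4%) were peak genes and 1 (5.56%), DNAJB9, a trough gene, against 11.9% and 13.9% of all genes. With scaling to total counts 5 were peaks and 2 troughs. DNAJB9 kept its call in 12 of 17 alternatives, and its log2 distance of -0.49 became -0.18 without 0 h replicate 1 (adjusted p = 0.494, edgeR). HSPA8, the constitutive HSP70, had 1092 and 1110.4 CPM at 0 h, 3526 and 3588 CPM at 3 h, 5068 and 5929.9 CPM at 6 h and 2454 and 2360.1 CPM at 72 h. Of 29 tested cytosolic ribosomal protein genes 9 (31.0%, against 11.9% of all genes) were peak genes and 0 trough genes. This count was 2 with scaling to total counts, 4 without 0 h replicate 1 and 22 with each library's GC trend removed, and 28 of the 29 were higher at mid-course than at 72 h. The 28 come from the main fit, in which 27.8% of all genes were higher at mid-course than at 72 h. Of 30 genes of nucleolar ribosome biogenesis, 7 (23.3%) were peaks, NPM1 among them, against 11.9% of all genes. The only trough was the RNA polymerase I subunit gene POLR1B (3.33% of the list, against 13.9% of all genes). With scaling to total counts 3 were peaks and 1 a trough. That list's median against both ends was 0.21, and -0.04 with scaling to total counts. In the cytoskeletal and adhesion targets of SRF and its cofactors MRTF, 6 of 20 (30%, against 11.9% of all genes) were peak genes. There were 0 trough genes, and with scaling to total counts 5 were peaks and 3 troughs. The actin genes ACTG1 and ACTB, whose transcripts resemble each other, were among the 6 peak genes. ACTG1 had 858 and 1058 CPM at 0 h, 5894 and 6016 CPM at 6 h and 1131 and 1205 CPM at 72 h.

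Oxidative phosphorylation held 1 peak and 1 trough in 30 genes, glycolysis 3 and 2 in 20, and the ATF4 and tRNA synthetase list 2 and 2 in 26. In the ATF4 list 22 of the 26 genes were lower at mid-course than at 0 h, against 28.7% of all genes. Peaks made up 3.33%, 15% and 7.69% of these 3 lists, against 11.9% of all genes. Troughs made up 3.33%, 10% and 7.69%, against 13.9%. With scaling to total counts these peaks and troughs were 0 and 7, 3 and 7, and 1 and 7. Of all 17559 genes 1192 were peaks and 3895 troughs with that scaling. Within the ATF4 list CHAC1, which degrades glutathione, had 30.6 and 38.3 CPM at 0 h, 0.256 and 0.637 CPM at 6 h and 2.23 and 2.84 CPM at 72 h. The cystine transporter gene SLC7A11 had 503 and 448 CPM at 3 h and 611 and 536 CPM at 6 h against 343 and 229.9 CPM at 0 h and 17.1 and 13.9 CPM at 72 h. Lysosomal genes held 5 troughs and 2 peaks in 23 tested genes and interferon-stimulated genes 4 and 1 in 19. Troughs were thus 21.7% and 21.1% of these lists, against 13.9% of all genes. They numbered 3 and 2 without 0 h replicate 2, and 10 and 7 with scaling to total counts. ISG15, a ubiquitin-like interferon-induced gene, had 5.59 and 8.11 CPM at 0 h, 4.72 and 3.91 CPM at 3 h, 1.79 and 1.59 CPM at 6 h and 5.74 and 5.22 CPM at 72 h. The call of OAS3 held in 7 of 17 alternatives.

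The levels at 3 h and 6 h differed for many genes. Across all genes 19.0% were higher and 22.1% lower at 6 h than at 3 h. Among peak genes 716 (34.3%) were higher and 300 (14.4%) lower at 6 h, and among trough genes 1133 (46.3%) were lower still and 314 (12.8%) had turned up. Leaving out a 6 h library lowered the 300 to 177 (replicate 1) or 196 (replicate 2). At both times taken singly, 1118 peak genes and 1115 trough genes were beyond both ends. The highest group mean of a peak gene came at 6 h for 1204 genes and at 3 h for 709, and the lowest mean of a trough gene at 6 h for 1696 and at 3 h for 684. CXCR3, GINS3 (a subunit of the GINS complex of DNA replication, 37.1 and 34.7 CPM at 3 h and 182 and 190.0 CPM at 6 h) and EREG were higher at 6 h. INSIG1, NRARP, ARC, SOX8 and MMP25 were higher at 3 h. Peak genes higher at 3 h had shorter spans. The 253 protein-coding peak genes higher at 3 h had a median span of 22.0 kb in the GRCh38 annotation, against 43.2 kb for the 682 higher at 6 h and 32.2 kb for all tested protein-coding genes. Their median transcript GC contents were 54.1%, 46.9% and 49.5%, and across all genes the difference of 6 h from 3 h had a correlation of -0.12 with GC content. Peak and trough genes at least 2-fold from each end had median spans of 21.0 kb and 16.3 kb. These are descriptions of genes chosen by their levels and were not tested.

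The ends themselves differed for many genes. Across all genes 31.7% were higher and 26.9% lower at 72 h than at 0 h. Among peak genes 680 (32.6%) were higher and 304 (14.6%) lower at 72 h, and for 1102 the difference did not pass the test. Among trough genes 654 (26.7%) were higher, 597 (24.4%) lower and 1196 not called. A p over the threshold does not show that a gene was back at its starting level. Set against the mean of 0 h and 72 h, the peak genes had a median log2 level of 0.03 at 0.5 h and 0.25 at 1.5 h. It was 0.65 at 3 h and 0.80 at 6 h, then 0.20 at 24 h and 0.07 at 48 h. For the trough genes the median was -0.10 and -0.26 at the first pair of times, -0.62 and -0.93 at mid-course, and -0.01 at both later times. The levels at the ends helped to choose these genes, so the medians can lean in the direction of the choice.

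**Figure D4:**
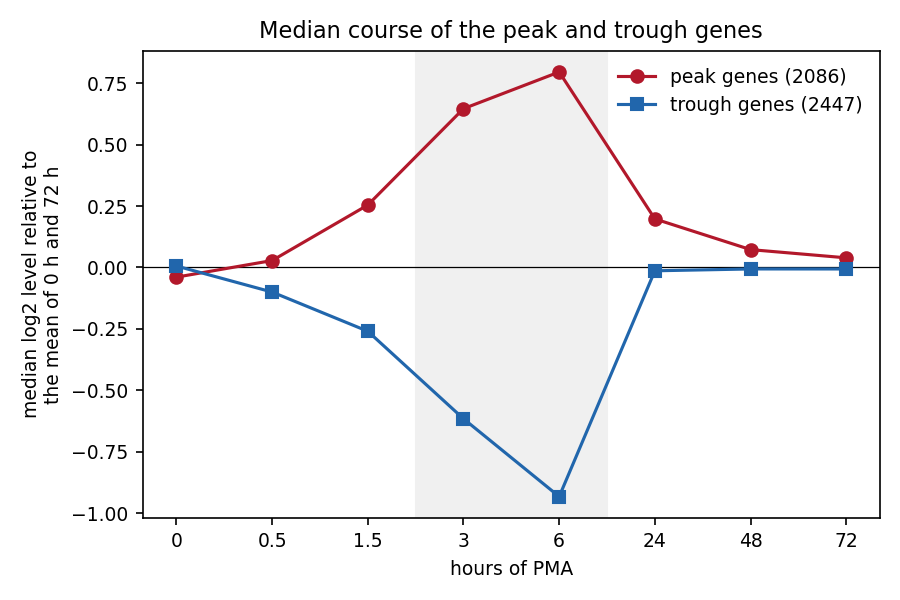
Median log2 level of 2086 peak genes (red circles) and 2447 trough genes (blue squares) at 8 time points, in hours of PMA and evenly spaced, relative to the mean of 0 h and 72 h; the grey band marks 3 h and 6 h, whose libraries chose the genes. The medians at the other times outside the ends come from libraries not used in the choice and reach 0.25 and -0.26 at 1.5 h. They are set against the ends, whose libraries also chose the genes, so part of each median can follow from the choice.

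The libraries at 0.5 h, 1.5 h, 24 h and 48 h entered the choice of genes only through the shared estimate of the spread and scaling, and gave a test of the flanks. From 0.5 h to 1.5 h, 4.11% of all genes rose and 1.67% fell. Of the peak genes 470 (22.5%) rose and 6 fell, and of the trough genes 158 (6.46%) fell and 4 rose (edgeR, adjusted p under 0.05 across all genes). CXCL8 rose by 4.71 (adjusted p = 3.44e-10, edgeR) and CISH fell by 0.94 on the log2 scale (adjusted p = 0.00198, edgeR) over this step. On the far side, 6.12% of all genes were higher and 8.88% lower at 24 h than at 48 h. Of the peak genes 308 (14.8%) were higher and 77 lower, and of the trough genes 304 (12.4%) were lower and 105 higher. MUC5AC, at 15.9 and 16.5 CPM at 24 h and 2.47 and 3.12 CPM at 48 h, was among the peak genes still falling, and NFE2, at 17.1 and 20.8 CPM and then 44.8 and 48.2 CPM, among the trough genes still rising. Both of these comparisons were added after the data had been seen, and the 308 became 205 without 6 h replicate 1.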

How the data were processed

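RNA sequencing of K562 cells under PMA gave 16 libraries, 2 at each of 8 time points. The deposited tables hold, per the file headers, an estimated count of reads (not whole, not normalized) and a TPM value (relative abundance corrected for transcript length) for each of 177456 transcripts, in the column layout of salmon. The submitters' processing notes name Trim Galore 0.4.3, Salmon, HISAT2 2.1.0, SAMtools 1.9, deepTools 3.0.1, R 3.3.1, DESeq2 and DESeq 1.33.5, and the builds hg19 and hg38, with no role given; the salmon version and strand setting are not given in the sources used here.

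Transcripts were matched to GENCODE release 29 genes (GRCh38) by identifier (94.1% matched; 3.01 to 3.75% of a library's reads were unmatched and left out), and estimated counts were summed per gene and rounded. edgeR 4.0.16 in R 4.3.3 was run with its default filter on low counts, TMM factors from 0.854 to 1.14, and the quasi-likelihood test over all 16 libraries (17559 genes, common biological coefficient of variation 0.123), with Benjamini-Hochberg adjustment within each contrast and a threshold of 0.05. CPM values were taken from TMM-scaled library sizes, and folds between group means use them. The floor, 3 reads in a library, lay between 0.0623 and 0.128 CPM. Floors and intervals cover counting error only. On simulated counts for the same 17559 genes, 200 genes were moved beyond both ends. The rule recovered 68% of 2-fold and 89% of 4-fold changes, with 0 false calls in 157. Whether the rule makes false calls where 0 h and 72 h differ, as they did for 10294 genes here, was not tested.

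The peak and trough genes, the gene lists and the rule for naming genes were chosen with earlier results of these data known. The rule named the 10 protein-coding peak and the 10 trough genes farthest from both ends (mean of at least 5 CPM, no overlap between mid-course and end libraries, replicates within 4-fold), and from each list the farthest member, the member with the highest mean and those against the list's direction; further list members were picked as examples after their values were seen. Symbols come from a table of current names, promoter windows from RefSeq (GRCh38.p14). Replicate numbers in the labels name no shared culture or day. The deviations of same-numbered libraries correlated from -0.30 to 0.60 (median 0.27) over 28 pairs of time points. The gap between full and effective transcript length was 210 to 221 nt in replicate 1 libraries. In replicate 2 libraries it was 229 to 248 nt, apart from 0 h at 199 nt. Whether same-numbered libraries share a batch was not tested, and the main fit held no replicate term. Alternatives were other size factors, total counts, filters, counts from TPM, DESeq2 1.42.0, a replicate block, a fit of 8 libraries, a GC correction, an adjusted p under 0.01 and leaving out each library. Some members of the lists are counted but not reported by name here.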

Additional observations from a re-analysis of the deposited data

Results flagged for a closer look

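The 3 h and 6 h levels of 6 of the 20 genes farthest from both ends differed by at least 4-fold (edgeR's quasi-likelihood test, Benjamini-Hochberg adjusted), so that their mid-course mean joins unlike levels. CXCR3 was higher at 6 h by 2.46 on the log2 scale (adjusted p = 1.38e-05), with both 6 h libraries above both 3 h libraries. ARC was lower at 6 h, at -2.22 (adjusted p = 3.14e-06), and its 3 h libraries differed from each other, at 899 and 616 CPM. Among trough genes, IQSEC2 lay at -2.56 (adjusted p = 1.31e-08), ZBED10P at -2.52 (adjusted p = 1.63e-08), GATA1 at -2.50 (adjusted p = 1.13e-07) and LRRC61 at -2.09 (adjusted p = 2.26e-05), each lower in both 6 h libraries than in both 3 h libraries. LRRC61 and ZBED10P overlap on chromosome 7, so their levels are uncertain.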

How the results depend on the processing

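With 2 libraries per time point, 2-fold changes were recovered in 68% of cases in a simulation that moved few genes. Recovery in these data, where many more genes differed, was not tested. Genes with few reads at 0 h have no firm fold. The 4533 genes beyond both ends became 2233 when 3 h and 6 h each had to lie beyond both ends (1118 peak and 1115 trough genes) and 1297 when at least 2-fold from each end was required (618 and 679). With libraries scaled to total counts, 1192 were peak and 3895 trough genes. Only the scaling differed between these fits, and which scaling is nearer to the truth was not tested. No gene took the opposite class in any alternative run. All 2447 trough genes and 1192 of the 2086 peak genes kept their class with scaling to total counts. That scaling lowered the share of higher calls from 47.4% to 27.4% against both ends, from 48.1% to 27.8% against 0 h and from 46.0% to 33.0% against 72 h. Leaving out 1 library gave 3992 to 4602 genes beyond both ends, 1759 to 2063 peak genes and 2232 to 2539 trough genes, where the lone library of a time point is taken to vary like the others.

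Counts of peak genes lower at 6 h than at 3 h ranged from 177 to 319 over the left-out libraries. Peak genes lower at 72 h than at 0 h numbered 501 with total counts. Peak genes that rose from 0.5 h to 1.5 h numbered 733 with the GC trend removed. Peak genes higher at 24 h than at 48 h numbered 199 with at least 10 reads in every library, and 205 to 425 over the left-out libraries. Trough genes that fell from 0.5 h to 1.5 h numbered 249 with total counts and 360 with the GC trend removed, and trough genes lower at 24 h than at 48 h numbered 564 with the GC trend removed. The causes were not tested. The sign of the distance turned for POLE (-0.0604) and COX7B (-0.0702) with total counts, TFRC (-0.30) with counts from TPM, and ZFPM1 (0.0584) with the GC trend removed. Of 111 named genes beyond both ends, 91 stayed so in every alternative run.

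With the replicate number as a block, 4708 genes were beyond both ends (2192 peak and 2516 trough genes). The labels do not say what libraries of the same number share. In that fit 10265 genes differed from the mean of both ends, 9998 from 0 h and 10932 from 72 h. Between 6 h and 3 h 7580 genes differed, and between 72 h and 0 h 10657.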
